A study of Mus musculus with 12 samples.

Results

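The DNA replication machinery was followed through 41 named genes in mouse lung cells sorted for 2 fluorescent reporters, Acta2-dsRed and Pdgfra-GFP. The 41 genes were taken by symbol from a table of 28004 genes, as components of origin licensing, the replicative helicase, the polymerases, the sliding clamp and its loader, flap removal, single-strand binding, nucleotide supply and replication-coupled chromatin assembly. All 41 were in the table, and all 41 were among the 16827 genes tested. The cells came from dissociated whole lung and were collected before birth at embryonic stage E17.5 and after birth on postnatal days P3, P7 and P10. Each stage has 3 libraries, 12 in all. The genotype of every library was Acta2-dsRed+, Pdgfra-GFP+, so the 4 groups differed by stage alone as far as the labels say. Acta2 is the gene of smooth muscle actin and Pdgfra that of a receptor for platelet-derived growth factor, so that the gate can hold more than 1 kind of mesenchymal cell. Whether the libraries of 1 stage are from separate mice is not stated, so the p-values cover the spread between libraries, and that spread may be technical.

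In a dividing cell, origins are first licensed by loading of the MCM helicase, with the origin recognition complex, Cdc6 and Cdt1 as loaders and geminin (Gmnn) as the inhibitor of Cdt1. The helicase is then activated by Cdc45, the GINS complex and Mcm10, and primase with DNA polymerase alpha, the polymerases delta and epsilon, the clamp Pcna, its loader, Fen1 and Lig1 copy the strands. Many of these genes are textbook targets of E2F transcription factors and are transcribed as cells enter S phase, so their RNA is commonly higher where more cells divide. In the developing lung, mesenchymal cells divide while the alveolar walls form.

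Levels are CPM, each library's counts relative to its scaled library size, computed from the deposited estimated counts with library sizes scaled by the trimmed mean of M-values (TMM). The sum of the estimated counts was 13328623 in the smallest and 18740591 in the largest library, with 20234 to 21235 genes above 0, and the TMM factors ran from 0.589 in E17.5 replicate 2 to 1.48 in P10 replicate 3. The deposited values appear to be scaled by transcript length, so that levels of different genes are on a per-length scale as far as the values show. Acta2 and Pdgfra themselves were present in every stage, with means of 487 to 1025 CPM and 179 to 346 CPM. Summed over 8 markers of the sorted cells, the mean levels of the 4 stages were 3762, 5089, 4898 and 4025 CPM. Single markers moved in opposite directions over the same step as the replication genes. From E17.5 to P3, 5 of the 8 rose: Acta2, Tagln, Myl9, Col1a1 and Aspn, the last from 8.71 to 205 CPM. Another 2 fell: Pdgfra, and Hhip from 609 to 102 CPM. Of all tested genes, 13.1% rose and 12% fell. From P7 to P10, 0 of the 8 markers passed, against 2.25% of all tested genes that fell and 1.4% that rose. The part of these markers in the replication gene levels was not tested. An exon of 13 of the 41 genes overlaps an exon on the other strand (Orc1, Orc6, Mcm7, Cdc45, Gins2, Pole, Rfc2, Rfc4, Rfc5, Fen1, Lig1, Tk1 and Chaf1a), and whether counting used strand is not given in the sources used here, so their levels are less certain.

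The replication genes were low at E17.5, high at P3 and P7 and low again at P10. Summed over the 41 genes, the level was 424, 413 and 478 CPM in the E17.5 libraries, 939, 981 and 1059 in the P3 libraries, 832, 857 and 848 in the P7 libraries, and 449, 373 and 407 in the P10 libraries. Each P3 and P7 library lay above each E17.5 and P10 library, and the E17.5 and P10 ranges overlapped. Of the 41 genes, 40 differed across the 4 stages at an adjusted p under 0.05 in edgeR's quasi-likelihood test (32.1% of all tested genes did), and the remaining gene was Rpa3, with an adjusted p of 0.813. The highest stage mean was at P3 for 31 genes, at P7 for 9 and at E17.5 for 1, Rpa1. In a bulk sample, fewer dividing cells and less RNA of these genes per cell cannot be told apart.

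**Figure D1:**
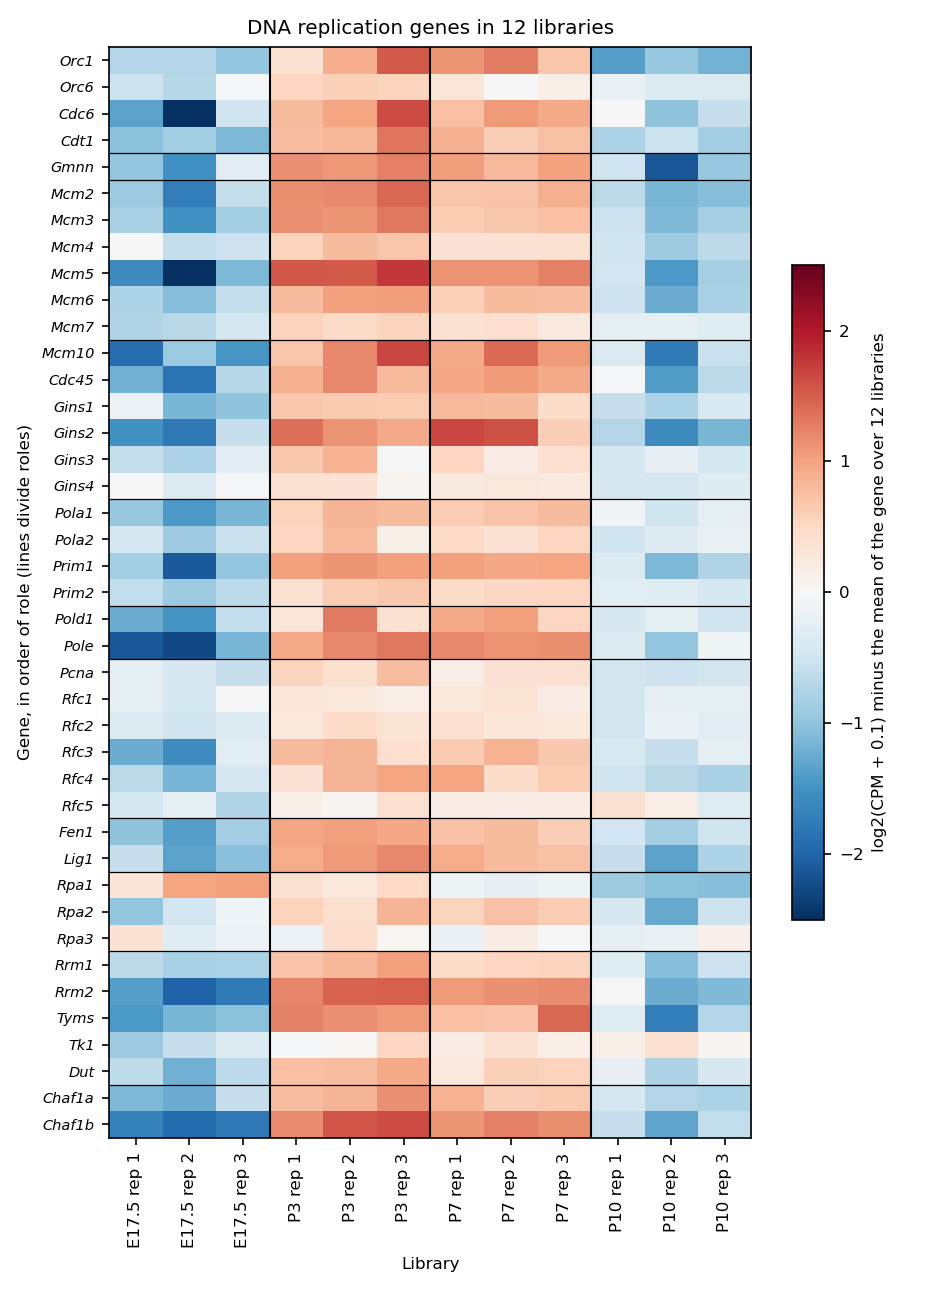
Each row is a replication gene and each column a library; colour gives log2(CPM + 0.1) minus the mean of the gene over the 12 libraries, and colours end at 2.5 in each direction. Rows are warm at P3 and P7 and cold at E17.5 and P10 except for Rpa1, Rpa3, Tk1 and Rfc5.

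Between E17.5 and P3, 39 of the 41 genes rose and 0 fell, against 13.1% of all tested genes that rose and 12% that fell. Their median log2 fold change was 1.77, where that of all tested genes was -0.05. In those same 39 genes every P3 library lay above every E17.5 library (19.3% of all tested genes). The estimate was at least 2-fold for 32 genes and at least 4-fold for 16. Of the 39 calls, 31 passed in every alternative setting in which the gene was tested, and those of Gins4 (lost in 9 settings), Rfc1 (7), Gins3 (4), Rfc5 (3), Orc6 (2), Tk1 (2), Rfc2 (1) and Rpa2 (1) did not. The 2 genes that did not pass were Rpa1 and Rpa3, subunits of the single-strand binding protein.

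From P3 to P7, 0 of the 41 genes passed the test (0.00594% of all tested genes passed, which is 1 gene, with edgeR). At an unadjusted p under 0.05 there were 4, namely Orc6, Mcm3, Pcna and Rpa1, all with lower P7 levels (7.41% of all tested genes). Over all 41 genes DESeq2 called 2, Mcm3 and Rpa1, and it called 716 of all tested genes. The estimates were below 0 for 32 genes (49% of all tested genes), and in 16 genes every P7 library lay below every P3 library (13.2% of all tested genes). The median log2 fold change was -0.15, but it turned to 0.14 when libraries were scaled by their totals alone, and 9 of the 41 estimates were then below 0.

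From P7 to P10, 34 of the 41 genes fell and 0 rose, against 2.25% of all tested genes that fell and 1.4% that rose. The median log2 fold change was -1.33, where that of all tested genes was 0.01. In 38 genes every P10 library lay below every P7 library (15% of all tested genes), the exceptions being Rfc5, Rpa3 and Tk1. The estimate was at least 2-fold lower for 26 genes. The 7 genes that did not pass were Orc6, Cdc6, Gins3, Rfc3, Rfc5, Rpa3 and Tk1. The count of calls depended on single libraries: it was 10, 9 and 9 without P7 replicates 1, 2 and 3, 7 without P10 replicate 2 and 3 without P10 replicate 3. The median log2 fold change in these 5 fits lay between -1.37 and -1.20. Calls over all tested genes dropped as well, from 613 to 55, 41, 39, 22 and 25 in the same order. When libraries were scaled by their totals alone, 0 of the 41 genes passed, with a median of -1.27, and 7 of all tested genes passed.

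The rise and the later fall could be read from comparisons that share no library, though 1 model gave both the same estimate of the spread. In 33 of the 41 genes both passed, against 1.7% of all tested genes (286 genes). Comparing P10 with E17.5, which shares libraries with each, 6 genes were higher (Mcm7, Pola1, Pole, Rrm2, Tk1 and Chaf1b, against 8.79% of all tested genes) and 1 was lower (Rpa1, against 9.5%). All P10 libraries lay above all E17.5 libraries in 9 genes (17.3% of all tested genes) and below them in 1 (16.6%). For 31 genes the P10 estimate lay within 1.5-fold of E17.5. A p above the threshold does not show that these levels were equal: Mcm2, for example, had a log2 difference of 0.05 with a standard error (SE) of 0.24, and its P10 mean of 6.11 ± 1.15 CPM stood beside 5.84 ± 2.18 CPM at E17.5 (SD, n = 3).

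**Figure D2:**
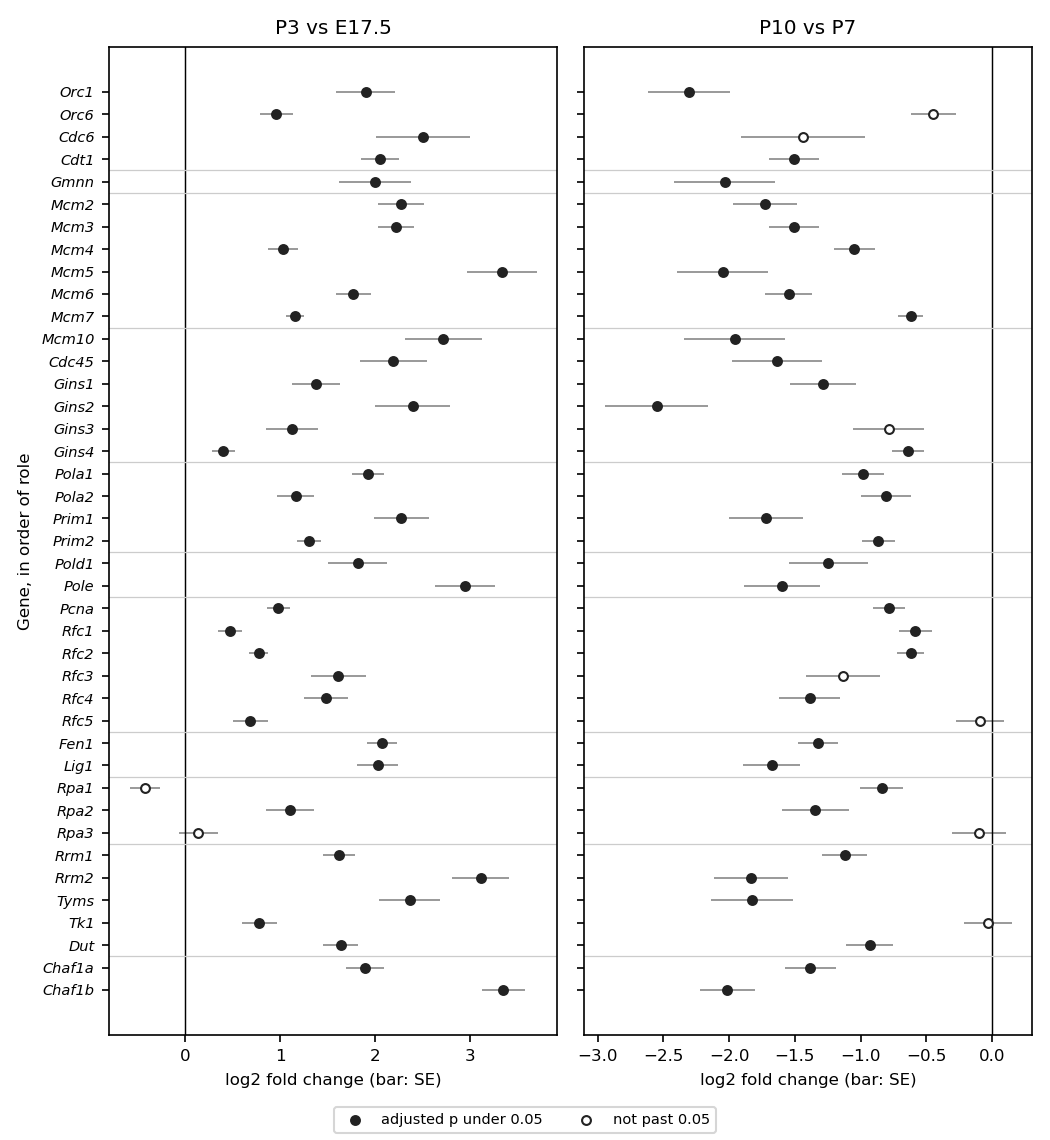
Points give the log2 fold change of each of the 41 genes in P3 vs E17.5 (left) and P10 vs P7 (right), with bars of 1 SE; filled points have an adjusted p under 0.05 and open points do not. On the left 39 points are filled and to the right of 0, and on the right 34 are filled and to the left of 0.

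Promoter sequences are shown because the genes moved together and because E2F proteins bind a short core motif in many of them. RefSeq windows on GRCm38.p6, 300 bases from 250 before to 50 after the start site, matched 33 of the 41 genes (37 promoters). The genes Pole, Gmnn, Prim2, Rfc2, Gins1, Gins2, Mcm4 and Gins4 had no entry. The E2F core was searched on both strands as TTGGCGC and in the forms reading TTCCCGC, reading TTCGCGC and reading TTGCCGC, where matches may overlap each other. It was in 24 of the 37 promoters (64.9%), in 16% of the 13029 promoters of tested genes and in 9.57% of all 32851 promoters. Among 58 promoters of 48 further replication genes, from the list described below, 24 held it (41.4%). The stretches below belong to the 6 called genes with the core and the largest fold changes from E17.5 to P3, and to Mcm6, chosen after its matches were seen because it held the most, 5 in 300 bases. Sequences read 5′ to 3′ on the strand of the gene, and capitals mark the E2F core on either strand.
Chaf1b (chr16:93883654-93883700, plus strand): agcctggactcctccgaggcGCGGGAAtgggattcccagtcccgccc
Mcm5 (chr8:75109325-75109386, plus strand): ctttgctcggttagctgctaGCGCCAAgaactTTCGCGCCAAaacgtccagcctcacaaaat
Rrm2 (chr12:24708004-24708045, plus strand): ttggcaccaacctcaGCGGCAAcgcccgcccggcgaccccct
Cdc6 (chr11:98907993-98908039, plus strand): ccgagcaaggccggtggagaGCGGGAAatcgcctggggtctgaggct
Prim1 (chr10:128015189-128015217, plus strand): ggcctgtcttgTTCCCGCcaattctcgtg
Mcm3 (chr1:20820264-20820293, minus strand): GCGGGAAaacttgggaagttTTGGCGCCAA
Mcm6 (chr1:128359722-128359834, minus strand): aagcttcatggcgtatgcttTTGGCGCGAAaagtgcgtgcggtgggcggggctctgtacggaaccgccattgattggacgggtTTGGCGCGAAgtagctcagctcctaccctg

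The Prim1 and Mcm3 stretches lie within exons of their genes in GENCODE mouse release M21, and the other stretches hold 0 exon bases of theirs. Mcm3, Mcm5 and Mcm6 show the core in pairs that overlap on opposite strands, and the printed stretch of Mcm6 holds 4 matches. The 22 genes with the core in a window had a median log2 fold change of 1.90 from E17.5 to P3 (range 0.14 to 3.35), and the 11 without it 1.16 (range -0.43 to 2.72). These ranges overlap over most of their length. Other motifs were searched in the same windows and on both strands. The CCAAT box was in 59.5% of the promoters of replication genes and 37.3% of those of tested genes, the GC box GGGCGG in 73% and 61.6%, and the cell cycle homology element TTTGAA in 10.8% and 12%. Median GC content was 61.3% in the promoters of replication genes, 60.7% in those of tested genes and 52.7% in all promoters. A match describes letters in a window and was not read as a bound site.

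Of the origin licensing genes, all 4 rose from E17.5 to P3 (median log2 fold change 1.98) and 2 of 4 fell from P7 to P10. Cdc6, the ATPase that loads the helicase with the origin recognition complex, measured 0.951, 0.292 and 1.77 CPM at E17.5, 4.50, 5.18 and 8.17 at P3, 4.39, 5.47 and 5.0 at P7, and 2.55, 1.23 and 1.68 at P10, in order of replicate. Its P3 and P7 libraries were each above all E17.5 and P10 libraries. The log2 fold change to P3 was 2.5 (SE 0.49, adjusted p = 0.00449), with an estimated count of 3 in E17.5 replicate 2. The P10 vs P7 value of -1.44 (SE 0.47, adjusted p = 0.119) did not pass.

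Orc1, the largest subunit of the origin recognition complex and the one whose supply varies through the cell cycle, had the largest fall of the licensing genes. It measured 1.36, 1.36 and 1.15 CPM at E17.5, 3.07, 4.44 and 6.96 at P3, 5.08, 5.80 and 3.84 at P7, and 0.831, 1.16 and 0.966 at P10. The P3 libraries spread over more than the difference between P3 and P7, and the fall to P10 was -2.31 on the log2 scale (SE 0.31, adjusted p = 0.0108). Orc6, another subunit of that complex, measured 5.16, 4.57 and 7.35 CPM at E17.5, 10.9, 11.3 and 11.1 at P3, 9.27, 7.44 and 8.41 at P7, and 6.71, 5.89 and 5.85 at P10. Its stages stepped down without overlap from P3 to P7 and from P7 to P10, but neither step passed (log2 fold changes -0.41 and -0.45, adjusted p = 0.321 and 0.179). Cdt1, the other loader, went from 2.01 ± 0.209 CPM at E17.5 to 8.32 ± 1.87 at P3 and from 6.96 ± 0.684 at P7 to 2.45 ± 0.305 at P10 (SD, n = 3).

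Gmnn, the inhibitor of Cdt1, moved the same way as the genes it opposes. Its level was 3.19, 2.14 and 5.22 CPM at E17.5, 14.0, 13.5 and 15.4 at P3, 13.2, 11.3 and 12.8 at P7, and 4.45, 1.36 and 3.25 at P10. The P3 and P7 libraries lay above all others, with log2 fold changes of 2.0 to P3 (SE 0.38, adjusted p = 0.00364) and -2.03 from P7 to P10 (SE 0.38, adjusted p = 0.0235). The ratio of Cdt1 to Gmnn was 0.671 ± 0.351, 0.578 ± 0.0911 and 0.559 ± 0.0221 in the first 3 stages (SD, n = 3). At P10 it was 0.533, 2.05 and 0.672 in the 3 libraries, where the high value came from the low Gmnn level of replicate 2.

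All 6 subunits of the MCM helicase, Mcm2 to Mcm7, rose to P3 (median log2 fold change 1.99) and fell to P10 (median -1.53). Between P3 and P7 all 6 estimates were below 0 (49% of all tested genes), with a median of -0.39. In all 6 every P7 library lay below every P3 library (13.2% of all tested genes). However, 0 of 6 passed, and 4 of 6 estimates were below 0 when libraries were scaled by their totals alone. Mcm5 had the largest rise to P3 and fall to P10 of the 6 on the log2 scale. It measured 2.58, 0.973 and 3.6 CPM at E17.5, 23.7, 23.4 and 27.6 at P3, 17.4, 17.47 and 19.4 at P7, and 5.70, 2.91 and 4.47 at P10. Its log2 fold changes were 3.34 to P3 (SE 0.37, adjusted p = 0.000181) and -2.05 from P7 to P10 (SE 0.34, adjusted p = 0.0170).

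On the log2 scale, Mcm7 and Mcm4 had the smallest rises to P3 and falls to P10 of the 6. Mcm7 measured 33.7, 35.2 and 41.8 CPM at E17.5, 84.5, 79.4 and 83.1 at P3, 73.9, 76.1 and 67.4 at P7, and 47.9, 47.8 and 45.9 at P10. It was the MCM subunit with the highest level in every library, and its 3 P10 libraries lay above its 3 E17.5 libraries (log2 difference 0.35, SE 0.09, adjusted p = 0.0243). Leaving out E17.5 replicate 1 or 2 or any 1 of the P10 libraries ended that call, with adjusted p up to 0.0975. Its exons overlap exons of Ap4m1 and Cops6 on the other strand, and it hosts Mir25 and Mir93, so that reads of these genes may be counted in it. Mcm4 measured 22.2, 14.8 and 15.6 CPM at E17.5, 33.0, 38.5 and 36.1 at P3, 28.7, 28.7 and 29.0 at P7, and 15.7, 11.97 and 14.0 at P10.

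The subunits act in equal numbers in the helicase ring, but their RNA levels were unequal and their proportions shifted. On the per-length scale, Mcm7 made up 39.5%, 50.9% and 46.1% of the summed MCM level in the E17.5 libraries, 35.6%, 32.6% and 31.9% at P3, 38.1%, 37.8% and 33.9% at P7, and 47.2%, 57.1% and 50.9% at P10. The P3 and P7 shares were all below the E17.5 and P10 shares. Mcm5 had mean shares of 2.80%, 10.1%, 9.14% and 4.69% in order of stage, and Mcm4 of 21.5%, 14.5%, 14.5% and 15.1%. An exact permutation test of 3 libraries against 3 cannot go below p = 0.1 for a share. The remaining subunits were Mcm2 (5.84 ± 2.18 CPM at E17.5 to 28.6 ± 3.09 at P3), Mcm3 (8.29 ± 2.13 to 38.9 ± 3.23) and Mcm6 (10.7 ± 1.79 to 36.8 ± 3.66; SD, n = 3).

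**Figure D3:**
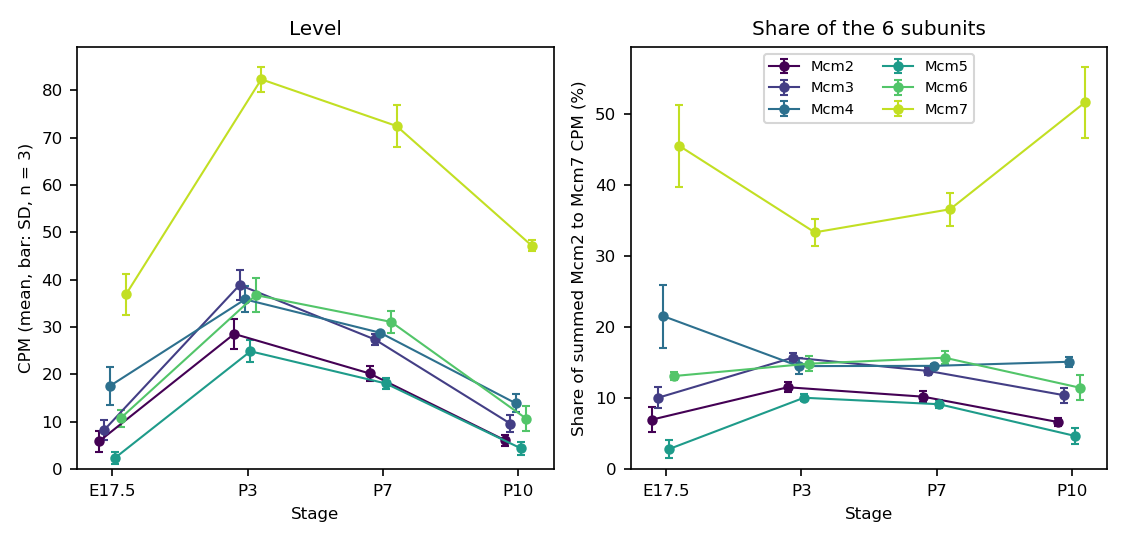
Left, mean CPM of the 6 MCM genes by stage with bars of 1 SD (n = 3); right, each gene's mean share of their summed CPM in percent, with the same bars. Mcm7 is highest throughout, and its share dips at P3 and P7 while that of Mcm5 peaks there.

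The helicase activation genes rose to P3 in 6 of 6 cases (median log2 fold change 1.78) and fell to P10 in 5 of 6 (median -1.46). Mcm10, which helps to start unwinding, measured 1.09, 2.24 and 1.51 CPM at E17.5, 7.09, 10.2 and 14.2 at P3, 8.57, 11.8 and 9.20 at P7, and 3.38, 1.23 and 2.95 at P10. The P3 libraries spanned a 2-fold range, and still all lay above the E17.5 libraries (log2 fold change 2.72, SE 0.41, adjusted p = 0.000985). Cdc45, the helicase cofactor, went from 1.45 ± 0.579 CPM at E17.5 to 6.76 ± 1.02 at P3 and from 6.84 ± 0.281 at P7 to 2.19 ± 1.02 at P10.

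The 4 genes of the GINS complex, which forms the active helicase with MCM and Cdc45, differed in how far they moved. Gins2 measured 0.951, 0.779 and 1.93 CPM at E17.5, 7.71, 6.44 and 5.67 at P3, 9.52, 8.96 and 4.52 at P7, and 1.72, 0.906 and 1.27 at P10. It had the largest fall of all 41 genes from P7 to P10 (log2 fold change -2.55, SE 0.40, adjusted p = 0.0132), although P7 replicate 3 was well below the other P7 libraries. Its exons overlap those of Gse1 on the other strand.

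Gins4 measured 12.6, 10.02 and 12.4 CPM at E17.5, 16.7, 16.3 and 13.4 at P3, 15.0, 15.7 and 15.2 at P7, and 9.68, 9.45 and 10.2 at P10. Its rise was the smallest of the genes that passed (0.40, SE 0.12, adjusted p = 0.0348) and was lost with a replicate block (adjusted p = 0.0630). Gins3 measured 1.22, 1.07 and 1.56 CPM at E17.5, 3.07, 3.53 and 1.89 at P3, 2.79, 2.20 and 2.52 at P7, and 1.37, 1.62 and 1.37 at P10. Its groups did not overlap from P7 to P10, but the log2 fold change of -0.78 (adjusted p = 0.135) did not pass. Gins1 went from 2.68 ± 1.10 CPM at E17.5 to 6.98 ± 0.104 at P3 and from 7.16 ± 0.966 at P7 to 2.93 ± 0.416 at P10.

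All 4 genes of DNA polymerase alpha and its primase, which lay down the primers, rose to P3 (median log2 fold change 1.61) and fell to P10 (median -0.92). Prim1, the catalytic primase subunit, measured 3.40, 1.36 and 3.13 CPM at E17.5, 12.8, 13.4 and 12.7 at P3, 12.7, 12.1 and 12.4 at P7, and 4.87, 2.78 and 3.61 at P10. Its P3 and P7 libraries lay within a narrow band above all others (log2 fold changes 2.27 and -1.72). Pola2, the accessory subunit, measured 4.76, 3.41 and 4.33 CPM at E17.5, 9.48, 11.5 and 7.16 at P3, 9.12, 8.34 and 9.41 at P7, and 4.57, 5.11 and 5.69 at P10. Its rise was 1.16 (SE 0.19, adjusted p = 0.00172) and its fall -0.80 (SE 0.19, adjusted p = 0.0460), a call lost in 13 of the 24 settings.

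Pola1, the catalytic polymerase subunit, stayed above its E17.5 level at P10. Its libraries gave 3.6, 2.53 and 3.13 CPM at E17.5, against 6.65, 4.92 and 5.95 at P10, with means of 11.8 ± 1.15 at P3 and 11.5 ± 0.594 at P7 between them. The P10 libraries lay above all E17.5 libraries (log2 difference 0.91, SE 0.16, adjusted p = 0.00345). This call was lost with the minimum fold of 1.5. Prim2, the other primase subunit, had means of 5.08 ± 0.524, 12.6 ± 1.31, 12.1 ± 0.361 and 6.63 ± 0.371 CPM in order of stage.

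Both polymerase genes rose and fell. Pole, the catalytic subunit of the leading-strand polymerase epsilon, measured 1.5, 1.36 and 3.08 CPM at E17.5, 13.4, 16.1 and 17.4 at P3, 16, 15.2 and 15.7 at P7, and 5.46, 3.49 and 6.46 at P10. Its P10 libraries lay above its E17.5 libraries, with a log2 difference of 1.34 (SE 0.31, adjusted p = 0.0118) that did not pass without P10 replicate 3 (adjusted p = 0.0522). Pold1, the catalytic subunit of the lagging-strand polymerase delta, measured 2.58, 2.14 and 4.07 CPM at E17.5, 7.77, 15.4 and 8.17 at P3, 12.2, 12.8 and 9.15 at P7, and 4.69, 5.31 and 4.37 at P10. P3 replicate 2 lay well above its companions, and the fall to P10 was -1.25 (SE 0.30, adjusted p = 0.0486), a call lost in 16 of the 24 settings.

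The clamp and its loader rose in 6 of 6 genes to P3, by less than most other groups (median log2 fold change 0.88), and fell in 4 of 6 to P10 (median -0.70). Pcna, the sliding clamp, measured 60.1, 52.8 and 47.4 CPM at E17.5, 103, 92.9 and 120 at P3, 78.7, 90.3 and 91.6 at P7, and 51.3, 48.8 and 51.4 at P10. The P3 and P7 libraries lay above all others (log2 fold changes 0.98 to P3 and -0.78 from P7 to P10). Pcna has a processed copy in the table, Pcna-ps2, at 28 to 242 estimated counts, and reads could be divided between them.

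Of the loader subunits, Rfc3 had the largest rise and Rfc1 the smallest. Rfc3 measured 3.40, 2.72 and 6.78 CPM at E17.5, 14.3, 14.8 and 11 at P3, 13.1, 15.0 and 13.2 at P7, and 6.29, 5.5 and 7.02 at P10, and its fall of -1.13 (SE 0.28, adjusted p = 0.0525) did not pass although the groups did not overlap. Rfc1, the largest subunit, measured 13.2, 11.5 and 15.8 CPM at E17.5, 19.4, 19.1 and 17.6 at P3, 19, 19.9 and 17.9 at P7, and 11.3, 13.2 and 13.4 at P10. Each difference was under 2-fold, with log2 fold changes of 0.47 (SE 0.13, adjusted p = 0.0201) and -0.58 (SE 0.13, adjusted p = 0.0355), the latter lost in 13 of the 24 settings.

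Rfc5 rose to P3 and did not pass from P7 to P10. It measured 9.65, 11.2 and 7.77 CPM at E17.5, 14.5, 13.9 and 17.496 at P3, 15.1, 15.0 and 15.1 at P7, and 17.2, 14.8 and 10.7 at P10. The P10 libraries lay on both sides of the P7 libraries (log2 fold change -0.09, SE 0.18, adjusted p = 0.834). Rfc5 (chr5:117378103-117389047, minus strand) has an exon that overlaps an exon of Wsb2 on the other strand. Rfc4 had stage means of 3.73 ± 0.941, 10.5 ± 2.27, 10.2 ± 1.98 and 3.89 ± 0.417 CPM, and Rfc2 of 15.1 ± 0.897, 25.9 ± 1.91, 25.1 ± 1.05 and 16.3 ± 1.77.

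Fen1, which removes the flap of an Okazaki fragment, and Lig1, the ligase that seals it, moved together. Fen1 measured 3.94, 3.02 and 4.38 CPM at E17.5, 16, 16.4 and 15.8 at P3, 13.4, 14.0 and 12.4 at P7, and 5.76, 4.40 and 5.64 at P10. Lig1 measured 20.9, 12.4 and 15.1 CPM at E17.5, 59.9, 65.9 and 71.8 at P3, 59.8, 54.0 and 51.8 at P7, and 21, 12.3 and 18.4 at P10. Both were without overlap between the high and the low stages. The log2 fold change from P7 to P10 was -1.33 for Fen1 (SE 0.15, adjusted p = 0.00513) and -1.68 for Lig1 (SE 0.22, adjusted p = 0.00841).

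The 3 subunits of replication protein A, which coats single-stranded DNA, each had a pattern of its own. Rpa1, the large subunit (chr11:75298166-75348324, minus strand), measured 80.2, 127 and 131 CPM at E17.5, 84.0, 76.7 and 90.9 at P3, 58.7, 55.4 and 58.4 at P7, and 34.6, 31.4 and 30.5 at P10. From P3 on each stage lay wholly below the one before, and only the low E17.5 replicate 1 overlapped with P3. The difference between P10 and E17.5 was -1.81 on the log2 scale (SE 0.17, adjusted p = 4.78e-05), and it passed in all 24 alternative settings with a range of -2.01 to -1.31. The step from E17.5 to P3 (-0.43, SE 0.16, adjusted p = 0.0781) did not pass. It did with DESeq2 (adjusted p = 0.0449), and leaving out E17.5 replicate 1 made it -0.62 (adjusted p = 0.00215). The step from P3 to P7 (-0.54, SE 0.16, adjusted p = 0.192) did not pass, and that from P7 to P10 did (-0.84, SE 0.16, adjusted p = 0.0264), though not in 8 of the settings.

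Rpa2, the middle subunit, followed the other replication genes. It measured 4.28, 6.03 and 7.82 CPM at E17.5, 12.6, 11.3 and 15.3 at P3, 12.5, 14.2 and 13.3 at P7, and 6.35, 3.49 and 5.85 at P10 (log2 fold changes 1.11 and -1.34). The ratio of Rpa1 to Rpa2 was thus 18.9 ± 2.15, 6.47 ± 0.452, 4.34 ± 0.408 and 6.55 ± 2.11 in order of stage (SD, n = 3). Rpa3, the small subunit (chr6:8255936-8259173, minus strand), measured 15.5, 9.73 and 10.9 CPM at E17.5, 10.9, 16.3 and 12.5 at P3, 10.8, 13.6 and 12.1 at P7, and 10.3, 10.7 and 13.2 at P10. Its stages overlapped throughout, with log2 differences between neighbouring stages of 0.14, -0.12 and -0.10, each with an SE of 0.20 to 0.21.

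**Figure D4:**
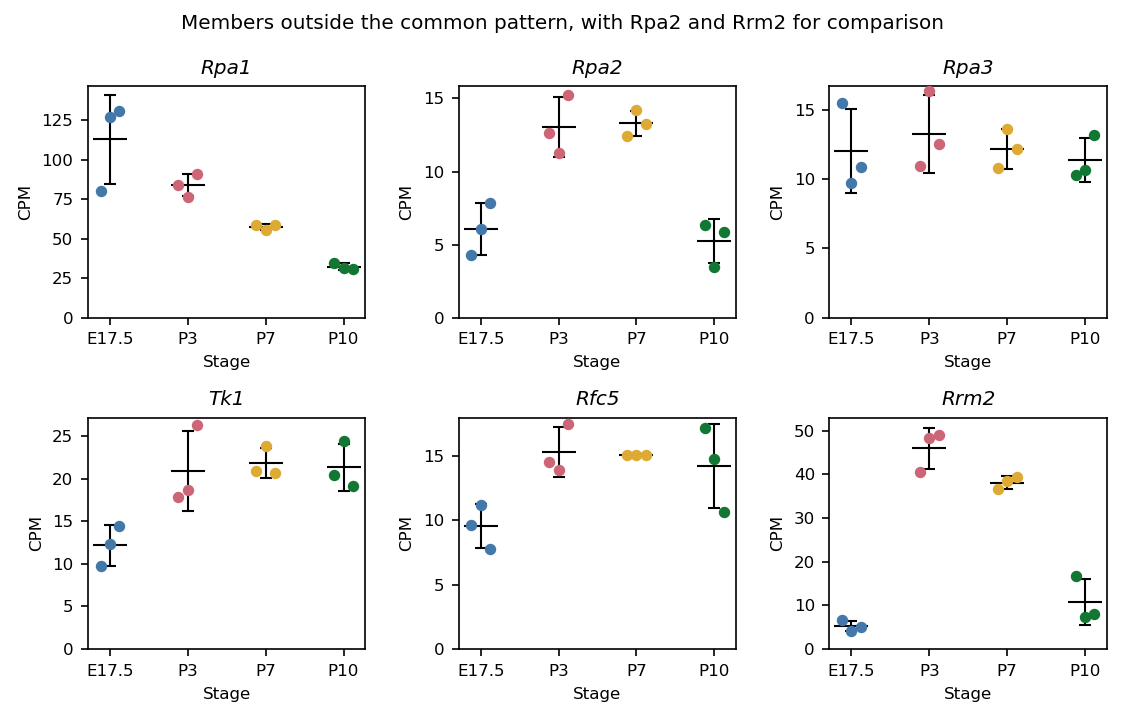
CPM of Rpa1, Rpa2, Rpa3, Tk1, Rfc5 and Rrm2 by stage, with 1 point per library and the mean with bars of 1 SD (n = 3). Rpa1 steps down, Rpa3 stays between 9.73 and 16.3, Tk1 and Rfc5 keep P10 levels near those of P7, and Rpa2 and Rrm2 are high at P3 and P7.

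All 5 nucleotide supply genes rose to P3 (median log2 fold change 1.64) and 4 of 5 fell to P10 (median -1.12). Rrm2, the small subunit of ribonucleotide reductase whose supply follows S phase, measured 6.59, 4.18 and 5.06 CPM at E17.5, 40.4, 48.4 and 49.0 at P3, 36.6, 38.5 and 39.3 at P7, and 16.7, 7.25 and 8.03 at P10. P10 replicate 1 lay apart from the other P10 libraries, and without it the P10 vs E17.5 difference of 1.01 (SE 0.29, adjusted p = 0.0342) became 0.52 (adjusted p = 0.0665). That call ended in 10 of the alternative settings. Rrm1, the large subunit, went from 10.4 ± 0.667 CPM at E17.5 to 31.9 ± 3.61 at P3, so that the ratio of Rrm2 to Rrm1 was 0.505 ± 0.0850, 1.44 ± 0.0984, 1.52 ± 0.00605 and 0.906 ± 0.265 in order of stage.

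Tk1, the cytosolic thymidine kinase of the salvage pathway (chr11:117815526-117826092, minus strand), rose to P3 and stayed at that level. It measured 9.72, 12.4 and 14.4 CPM at E17.5, 17.8, 18.7 and 26.3 at P3, 20.9, 23.8 and 20.6 at P7, and 20.4, 24.4 and 19.2 at P10. All postnatal libraries lay above all E17.5 libraries, and the postnatal stages overlapped. P10 was higher than E17.5 (0.81, SE 0.18, adjusted p = 0.0121), a call lost without P10 replicate 2 (adjusted p = 0.0510), and P10 vs P7 gave -0.03 (SE 0.18, adjusted p = 0.949). An exon of Tk1 overlaps an exon of Afmid on the other strand.

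Tyms, the thymidylate synthase that makes the same nucleotide from deoxyuridylate, did fall. It measured 3.94, 4.87 and 5.32 CPM at E17.5, 25.8, 24.2 and 22.8 at P3, 18.5, 17.9 and 29.4 at P7, and 8.79, 3.24 and 6.51 at P10 (P10 vs P7 log2 fold change -1.82, SE 0.31, adjusted p = 0.0184). P7 replicate 3 was above all other libraries, and the P10 libraries still lay below all P7 libraries. Dut, which removes dUTP, had means of 15.2 ± 3.15, 47.5 ± 3.79, 37.5 ± 4.66 and 19.6 ± 3.74 CPM in order of stage.

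Both subunits of the chromatin assembly factor, which places histones behind the fork, rose and fell, and Chaf1b had the largest rise of all 41 genes. Chaf1b measured 1.29, 1.07 and 1.20 CPM at E17.5, 9.96, 13.2 and 13.6 at P3, 9.47, 10.5 and 9.94 at P7, and 2.91, 1.68 and 2.80 at P10. No stage but the P3 and P7 pair overlapped, and the log2 fold changes were 3.35 to P3 (SE 0.23, adjusted p = 1.34e-05), -2.01 from P7 to P10 (SE 0.21, adjusted p = 0.00382) and 1.05 for P10 vs E17.5 (SE 0.23, adjusted p = 0.00899). The last call was lost in 3 of the 24 settings: limma-voom, the 6 libraries compared alone and the minimum fold of 1.5. Chaf1a measured 3.6, 3.31 and 5.32 CPM at E17.5, 13.7, 14.4 and 17.7 at P3, 14.6, 12.3 and 12.6 at P7, and 5.88, 4.72 and 4.52 at P10. Its rise was 1.89 (SE 0.20) and its fall -1.38 (SE 0.19).

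Most of the genes shared 1 stage pattern across the libraries. Over the 820 pairs of the 41 genes, the Pearson correlation of log2 CPM across the 12 libraries had a median of 0.895, from -0.513 to 0.994. The libraries share stage and depth, and the correlation contains the stage differences given above, so this is a description. Against the median of the other 40 genes, Fen1 had the highest correlation (0.993), and Rpa1 (0.065), Rpa3 (0.318), Tk1 (0.570) and Rfc5 (0.601) the lowest. With the stage means taken out, this correlation ran from -0.278 for Cdt1 to 0.955 for Mcm5. Within stages the spread was smallest at P7, with a median coefficient of variation of 7.48% (13.9% over all tested genes), and largest at E17.5, with 23.3% (21.6%). At E17.5, replicate 2, which also had the lowest TMM factor, was the lowest library for 31 genes, and without it 37 of the 41 genes passed in P3 vs E17.5. At P10, replicate 1 was the highest library for 27 genes and replicate 2 the lowest for 25.

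Other genes of the pathway were taken from a list of 58, all tested, that holds further origin, polymerase, fork protection, Okazaki fragment, nucleotide and histone chaperone genes. From E17.5 to P3, 39 of the 58 rose, 3 fell and 16 did not pass (13.1% of all tested genes rose and 12% fell). From P7 to P10, 22 fell and 0 rose (2.25% of all tested genes fell and 1.4% rose). The 4 highest fold changes were those of Exo1, a DNA exonuclease (0.520 to 6.18 CPM, log2 fold change 3.58), 2810417H13Rik, the Pcna-associated factor also called Pclaf (3.69 to 26.6 CPM, 2.83), Asf1b, a histone chaperone (1.34 to 8.80 CPM, 2.71) and Uhrf1, which guides maintenance methylation behind the fork (5.65 to 36.9 CPM, 2.70). The 4 lowest among those that passed were Samhd1, which breaks down deoxynucleotides (58.4 to 34.0 CPM, -0.78, adjusted p = 0.00442), Pold4, a small subunit of polymerase delta (14.3 to 8.44 CPM, -0.76, adjusted p = 0.0241), Top1, a topoisomerase (161 to 103 CPM, -0.65, adjusted p = 0.0222), and Rbbp4, a histone chaperone shared with the chromatin assembly factor (38.9 to 50.1 CPM, 0.36). Pold1, the catalytic subunit of the same polymerase as Pold4, rose.

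Markers of other lung cells were present, with summed levels below that of the 8 sorted-cell markers. Single genes could exceed a sorted-cell marker: at P3 the mean was 132 CPM for the epithelial marker Sftpc and 102 for Hhip. For 7 endothelial markers, summed levels were 16.8 to 21.9 CPM at E17.5, 12.8 to 25.9 at P3, 14.6 to 31.4 at P7 and 9.74 to 57.0 at P10. For 8 epithelial markers, mostly surfactant protein and club cell RNA, the sums were 99.7 to 142, 139 to 248.9, 121 to 174 and 49.99 to 253 CPM, and for 8 immune markers 10.6 to 13.5, 17.8 to 20.9, 17.0 to 21.7 and 15.1 to 24.5 CPM. The 6 erythroid markers summed to 117 to 179 CPM at E17.5 and to at most 53.6 CPM in any later library, and 4 of the 5 tested fell from E17.5 to P3. Over that step 1 of 7 endothelial markers fell, and 1 of 7 epithelial and 1 of 5 immune markers rose. Of all tested genes, 12% fell and 13.1% rose. Of the 2 tested mesothelial markers 1 fell, Krt19 (adjusted p = 0.0301). The 5 mesothelial markers summed to 8.83 to 12.7 CPM at E17.5 and at most 4.46 CPM later. Most of the E17.5 sum was Krt19, at 7.95, 8.47 and 11.5 CPM in the 3 libraries. The mesothelial markers Upk3b, Wt1 and Lrrn4 were at or near 0 in all stages. From P7 to P10, 0 of the 7 endothelial, 0 of the 7 tested epithelial, 0 of the 5 tested immune and 0 of the 5 tested erythroid markers passed. Of all tested genes, 2.25% fell and 1.4% rose between these stages. Estimates were above 0 for 7 of 7 endothelial markers (median log2 fold change 0.90), 5 of 5 erythroid (0.45), 3 of 7 epithelial and 3 of 5 immune markers. Of the 2 tested mesothelial markers 1 fell with the replication genes, Msln, at mean levels of 0.404 CPM at P7 and 0.0752 CPM at P10 (log2 fold change -2.30, adjusted p = 0.0284). P10 replicate 1 had the lowest endothelial and epithelial sums of its stage and the highest sum of replication genes. The part of these cells in the replication gene levels was not tested.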

How the data were processed

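RNA of sorted lung cells from 12 libraries was measured with a stranded low-input total RNA kit, per the labels' protocols, although the molecule label names polyadenylated RNA. The deposited values are estimated counts per gene in whole numbers, read as such from the values. Among genes with 1 transcript, the smallest value above 0 was typically 8 for transcripts of 300 to 400 nt and 1 above 900 nt, as a length scaling would give, so a value is not a number of reads. The build was GRCm38 per the submitters' processing notes. For aligner, quantifier, gene models and strand, the sources used here give nothing. Gene positions are from GENCODE mouse release M21 (GRCm38) and promoters from RefSeq (GRCm38.p6).

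Groups were taken from the titles. Genes were filtered by edgeR's filter on low counts by stage, scaled by TMM, and fitted in 1 model over 12 libraries with robust quasi-likelihood (edgeR 4.0.16, limma 3.58.1, R 4.3.3). Adjusted p-values are Benjamini-Hochberg over 16827 genes with a threshold of 0.05, and come from this test wherever no other is named. The test was checked on simulated data. Values are means ± SD of 3 libraries. Depth limits low genes most.

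The 41 genes, the pathway and marker lists, the rules and the comparisons were chosen with earlier results of these data known. All 41 genes may be named, with values per library for the largest and smallest changes of each role and for genes that did not pass. Of the 58 further genes, the 4 highest and 4 lowest changes in P3 vs E17.5 among genes that passed were named, with those that passed against the main direction. Alternatives were other scalings and filters, DESeq2 1.42.0, limma-voom, the 6 libraries compared alone, a replicate block, a minimum fold of 1.5 and each library left out.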

Additional observations from a re-analysis of the deposited data

How the results depend on the processing

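The results were recomputed in 24 settings, 12 of which left out a library each. For P3 vs E17.5, 31 to 40 of the 41 genes passed in each setting. For P7 vs P3 (0 genes), DESeq2 called 2 and leaving out a library gave 0 to 1, the 1 gene being Rpa1 without E17.5 replicate 1. For P10 vs P7 (34 genes), scaling by library totals gave 0, a minimum fold of 1.5 gave 1, and leaving out a library gave 3 to 35. Of these 34 calls, 0 were kept in every setting. For P10 vs E17.5 (7 genes), a minimum fold of 1.5 gave 1 and the 6 libraries alone gave 3. Of these 7 calls, only that of Rpa1 was kept in every setting. Replicate numbers did not pair the libraries: deviations of same-numbered libraries had a median correlation of -0.00465 over 18 pairs, and 5 of 12 libraries correlated best with their own number. With the replicate block, 38, 0, 27 and 6 genes passed in the 4 comparisons. Without the 7SL and 7SK genes, 39, 0, 33 and 7 passed.

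No estimate of the 41 genes that had passed changed sign in any setting. Under library totals 23 of the 41 estimates changed sign in P7 vs P3, among them Pcna (0.029), and 9 in P10 vs E17.5. In P3 vs E17.5 and P10 vs P7, sign changes were limited to fits that left out a library: Rfc5 in P10 vs P7 (-0.28 to 0.097), Rpa3 in P10 vs P7 (-0.20 to 0.0011) and in P3 vs E17.5 (-0.019 to 0.36), and Tk1 in P10 vs P7 (-0.14 to 0.054). Leaving out a library also turned up to 10 estimates in P7 vs P3 and up to 6 in P10 vs E17.5. Scaling by library totals moved the median log2 fold change of all genes to 0.11, 0.30, 0.06 and 0.50 in the 4 comparisons, last P10 vs E17.5, and the medians of the 41 genes to 1.90, 0.14, -1.27 and 0.73. The share of all calls that were higher went from 52.1% to 70.6% in P3 vs E17.5 and from 48.1% to 83.3% in P10 vs E17.5. The cause was not tested. Of all tested genes, 4225, 1, 613 and 3077 passed in the 4 comparisons. For P3 vs E17.5 this became 1499 with library totals, 1255 with the minimum fold and 2767 with the 6 libraries. For P7 vs P3 it was 716 with DESeq2 and 0 to 73 in all other settings. For P10 vs P7 it was 7 with library totals, 10 with the minimum fold, 307 without the filter, 310 with the block, 1833 with DESeq2 and 22 to 790 with a library left out. For P10 vs E17.5 it was 1178 with the minimum fold, 1687 with the 6 libraries and 2016 without P10 replicate 3.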
